A study of Mus musculus with 3 samples.

Results

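The comparison is between mouse blastocysts collected 12 h after estradiol (E2), called reactivated, and those collected 6 h after it, called reactivating. It asks which transcripts changed in the second 6 h window of the exit from embryonic dormancy. The genes compared are the 10738 of 31510 in the deposited tables (34.08%) that had at least 50 exon reads in the higher of the 2 libraries, and 9739 of them were protein-coding. The embryos came from CD-1 females aged 2 months, with no genetic change named. All mothers lost their ovaries on the morning of day 4 of pregnancy and were given 2 mg of progesterone daily on days 5 to 7. The mothers of both groups compared then received E2 on day 7. The dormant embryos, used here only as a reference level, were flushed on day 8 with no E2 named for them. They are thus not a sample from the time of the E2 injection. Below, the first step and change before 6 h mean the 6 h library against the dormant one, not a measured time course. Each state was 1 library from a pool of more than 3000 blastocysts, so every difference is between 2 libraries, has no replicate check and carries no p-value. The hour of collection changed with the state and cannot be told apart from it.

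In delayed implantation the mouse blastocyst hatches, stops dividing and lowers its metabolism while progesterone alone acts on the uterus. A rise of ovarian estrogen, here given as E2, makes the uterus receptive, and the embryo inside it resumes growth and becomes able to attach. A blastocyst holds an outer trophectoderm, which attaches first, an inner epiblast, which forms the fetus, and the primitive endoderm between epiblast and cavity.

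The 6 h library held 10364607 exon reads and 3479754 intron reads, and the 12 h library 12941447 and 3982790. A gene with 3 reads and 1 kb of exons corresponds to 0.191 RPKM at 6 h and 0.158 RPKM at 12 h. RPKM, as the authors deposited it, divides a gene's exon reads by its exon length and by the library total. The share of exon reads from mt-Rnr2, a ribosomal RNA of mitochondria, was 18.6% at 6 h and 24.3% at 12 h. Defining genes of all 3 blastocyst lineages were present at 12 h, with the trophectoderm keratin Krt18 at 624 RPKM, the epiblast factor Pou5f1 at 124 RPKM and the primitive endoderm factor Gata4 at 20.3 RPKM.

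A gene is said here to have risen or fallen when log2((RPKM at 12 h + 1)/(RPKM at 6 h + 1)) was at least 1 in size, a change of 2 times on a scale that understates changes of weakly expressed genes. By that rule 299 genes rose, 2.78% of those compared, and 696 fell, 6.48%, together 995 genes or 9.27%. The 95% interval of the read ratio, which covers counting error only, lay wholly past 2 times for 210 of the genes that rose and 576 of those that fell. The median difference over all 10738 genes was -0.11, and whether that reflects the scale or a small fall of the typical gene cannot be told apart. Median-ratio scaling, which sets the typical gene to no change, moved that median by 0.12. With it 448 genes rose (4.17%) and 497 fell (4.63%), so that 52.6% of the changed genes were lower against 69.9% on the RPKM scale. This scaling moves nearly all genes upward by a similar amount, so genes that had risen stay past the rule by construction, while 497 of the 696 that had fallen stayed past it. With mitochondrial and small RNA genes left out of the library total, 525 genes rose and 765 fell. The genes that rose had shorter exons (median 1769 bases, 31.4% under 1 kb) than all genes compared (2654 bases, 12.8%), and 32 of the 299 were small RNA genes.

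By the rule used, most of the changed genes had a flat first step. Of the genes that rose, 228 (76.3%) had differed by less than 0.5 on the log2 scale between the dormant and 6 h libraries, and of those that fell, 591 (84.9%) had. The same share over all genes compared is not given here. These shares therefore describe the changed genes and do not set them apart from other genes. For comparison, 105 genes were higher (1.01%) and 130 lower (1.25%) at 6 h than in the dormant library, of 10405 compared. Of these, 49 and 9 were protein-coding. In the second window 230 protein-coding genes rose and 625 fell. Both steps use the 6 h library, so an error in it would enter them with opposite sign. Of the genes that rose, 52 had moved the other way by at least 0.5 in the first step, and of those that fell, 95 had.

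**Figure D1:**
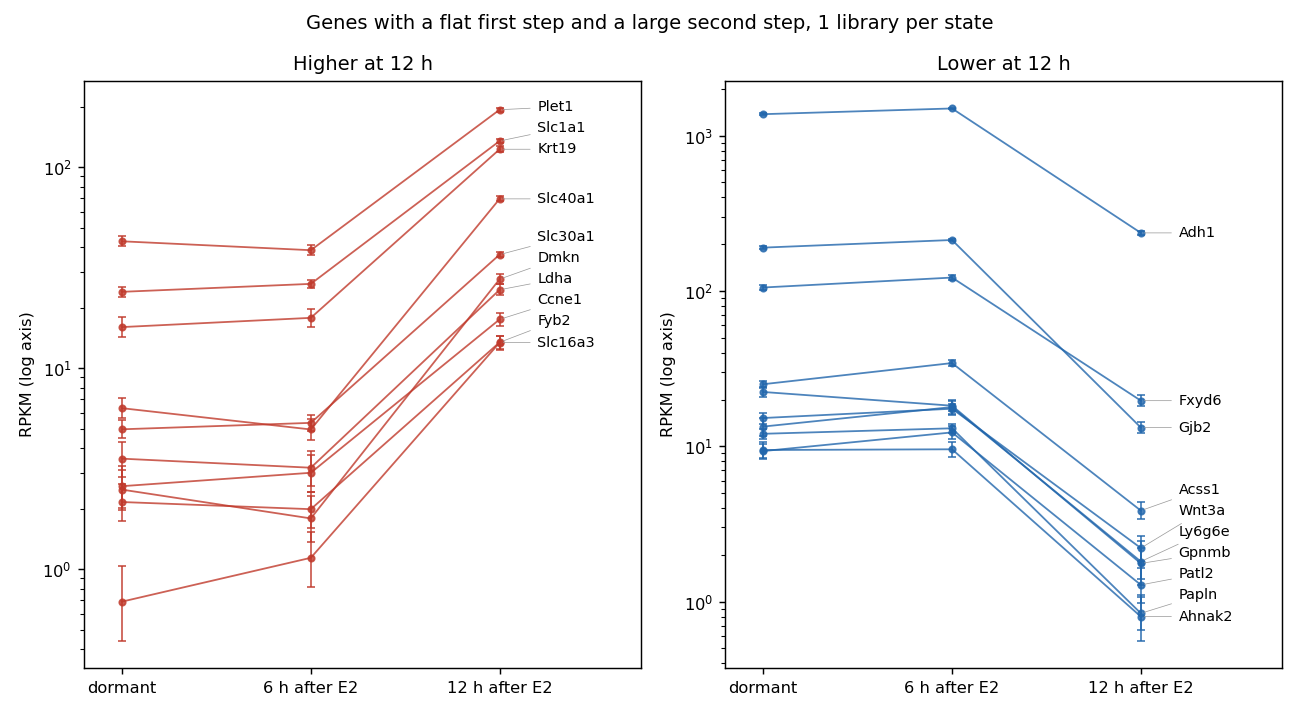
RPKM (log axis) of the 10 largest rises and 10 largest falls among genes with a flat first step, in the dormant, 6 h and 12 h libraries. Points are single libraries and bars are 95% Poisson intervals, which cover counting error only. Each line changes by less than 0.5 (log2 of RPKM + 1) between dormant and 6 h and turns between 6 h and 12 h, as for Gjb2 at 190, 213 and 13.2 RPKM.

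The gene with the largest rise was Prap1, which encodes a secreted epithelial protein. It gave 6 exon reads in the dormant library, 1 at 6 h and 408 at 12 h (0.70, 0.10 and 35.4 RPKM). With a single read at 6 h its read ratio is loosely bounded, from 5.91 to 13.7 on the log2 scale. Slc40a1, the ferroportin that exports iron from cells, read 6.33, 4.96 and 69.7 RPKM, a 14.0-fold rise in the second window. The iron exporter was low in both other libraries, and its 12 h interval (67.6 to 71.7 RPKM) lay far above that of 6 h (4.38 to 5.60 RPKM). Dmkn, a secreted protein of stratified epithelia, stood at 2.49, 1.79 and 27.8 RPKM. Krt19, a keratin of simple epithelia (chromosome 11, 100140810 to 100148665, minus strand), stood at 16.0, 17.8 and 123 RPKM. Dmkn and Krt19 thus changed little before 6 h and rose 15.5-fold and 6.90-fold after it. Plet1, a surface protein of trophoblast progenitors, went from 38.7 to 193 RPKM. Slc1a1, a glutamate and aspartate transporter, went from 26.3 to 135 RPKM. Both began from a dormant level close to that of 6 h (42.8 RPKM for Plet1 and 24.01 RPKM for Slc1a1). Saa3, an acute-phase serum amyloid gene, had already risen in the first step, from 2.67 to 5.29 RPKM, and reached 47.3 RPKM at 12 h. Plpp1, a phospholipid phosphatase, was also of this kind, with 2.21, 3.63 and 27.7 RPKM.

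The largest fall was that of Gjb2, the gap junction protein connexin 26 (chromosome 14, 57098600 to 57104702, minus strand, protein-coding). It stood at 190 RPKM in dormancy, 213 RPKM at 6 h and 13.2 RPKM at 12 h, a 16.1-fold fall. Its intron reads fell with it, from 261 to 17. Papln, an extracellular matrix protein, stood at 12.0, 13.1 and 0.84 RPKM. Acss1, which makes acetyl-CoA from acetate in mitochondria, stood at 25.1, 34.3 and 3.85 RPKM. In these genes the 6 h level was at or above the dormant level. Adh1, an alcohol dehydrogenase that can oxidise retinol, was the most abundant of the 15 largest falls, at 1375 RPKM in dormancy, 1497 RPKM at 6 h and 237 RPKM at 12 h. Fxyd6, a regulatory subunit of the sodium pump, went from 122 to 19.7 RPKM. Patl2, a translational repressor known from oocytes, went from 12.3 to 1.28 RPKM. Its intron reads numbered 120 and 117, not scaled for the larger total of the 12 h library. Pramel6, of a gene family with near-identical copies among which reads may be split, went from 28.3 to 4.11 RPKM. Nuak1, a kinase related to AMPK, and Dok4, a docking protein of tyrosine kinases, fell 6.05-fold and 5.75-fold.

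Genes past the rule and under 1 RPKM in the lower library are called turned on or off here. These counts depend strongly on the settings. A minimum of 200 exon reads gave 8 turned on and 22 turned off, and a pseudocount of 0.1 gave 126 and 299. Turned on, that is under 1 RPKM at 6 h and past the rule at 12 h, were 30 of the 10738 genes, 26 of them protein-coding. Besides Prap1 they included Vav3, an exchange factor for small GTPases, at 0.75, 0.66 and 6.34 RPKM, and Fads2, a fatty acid desaturase, at 0.54, 0.20 and 3.84 RPKM. The protease Adamts8 came on from 0.14 to 3.21 RPKM, heparanase (Hpse) from 0.60 to 3.47 RPKM and the desmosomal cadherin Dsg3 from 0.34 to 2.13 RPKM. Heparanase cuts heparan sulfate chains of the matrix. The integrin Itgb3, a cell adhesion receptor, came on from 0.61 to 2.39 RPKM, having been at 1 RPKM in dormancy. The mitotic kinase Pbk (1.29, 0.81 and 4.59 RPKM) and the replication checkpoint protein Clspn (1.36, 0.92 and 2.94 RPKM) met the rule at 6 h but had been above 1 RPKM in dormancy. Turned off were 85 of the 10738 genes, 80 of them protein-coding. Arg1, which splits arginine into ornithine and urea, gave 95, 136 and 9 exon reads (4.73, 6.09 and 0.33 RPKM). Acox2, a peroxisomal oxidase of branched lipids and bile acid precursors, went from 5.99 to 0.83 RPKM. The scaffold Ahnak2 went from 9.56 to 0.80 RPKM, the motor protein Myo1a from 5.29 to 0.99 RPKM and the ion channel Trpm1 from 2.32 to 0.26 RPKM. The growth factor receptor Fgfr3 went from 2.56 to 0.72 RPKM, a fall that no longer passed the rule at median-ratio scaling (-0.96).

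Intron reads, which in rRNA-depleted total RNA come largely from unspliced transcripts, gave a second readout of the same libraries. Of 9311 genes with at least 50 intron reads, 255 were higher at 12 h by the same size (2.74%) and 587 lower (6.3%). Among the 180 genes whose exon reads rose and that had enough intron reads, 167 had a positive intron difference, 81 were also past the rule and none was past it in the other direction. Their median was 0.87 for introns and 1.24 for exons. Among the 477 such genes that fell, 456 had a negative intron difference and 236 were past the rule, with medians of -0.99 and -1.25. Across all 7694 genes with both readouts 70.2% had the same sign in exons and introns, the share beside which these counts are to be read. The median intron difference of the 9311 genes was -0.11, which favours negative signs. Pearson's r across the 7694 genes was 0.64, a description across genes of 2 libraries that share their depth. Slc40a1 (19 and 422 intron reads), Ccne2 (12 and 110) and Ctsll3 (0 and 51), of the cathepsin L family, rose in introns as in exons. Pcna, the sliding clamp of DNA polymerase, showed a larger difference in introns, from 30 to 241 reads (2.69), than in exons, from 5.57 to 8.79 RPKM (0.58). Pramel7 fell in introns from 160 to 19 reads and Pink1, a mitochondrial kinase, from 229 to 49.

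Some genes changed in exons with flat introns, 26 of the 180 that rose and 34 of the 477 that fell (intron difference within 0.25). The glucose transporter Slc2a1 rose from 39.8 to 82.2 RPKM with an intron difference of -0.02. The termination factor Gspt1 (0.05), the sterol oxidase Msmo1 (0.04) and the initiation factor subunit Eif3e (0.14) rose with equally small intron differences. Nucleolin (Ncl) stood at 12.8, 7.71 and 26.3 RPKM with 8960 and 9181 intron reads, and small nucleolar RNA genes lie within its introns on the same strand. The water channel Aqp8 fell from 52.9 to 19.4 RPKM with 126 and 143 intron reads. The readouts passed the rule in opposite directions in 1 gene, which was lower in exons and higher in introns.

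**Figure D2:**
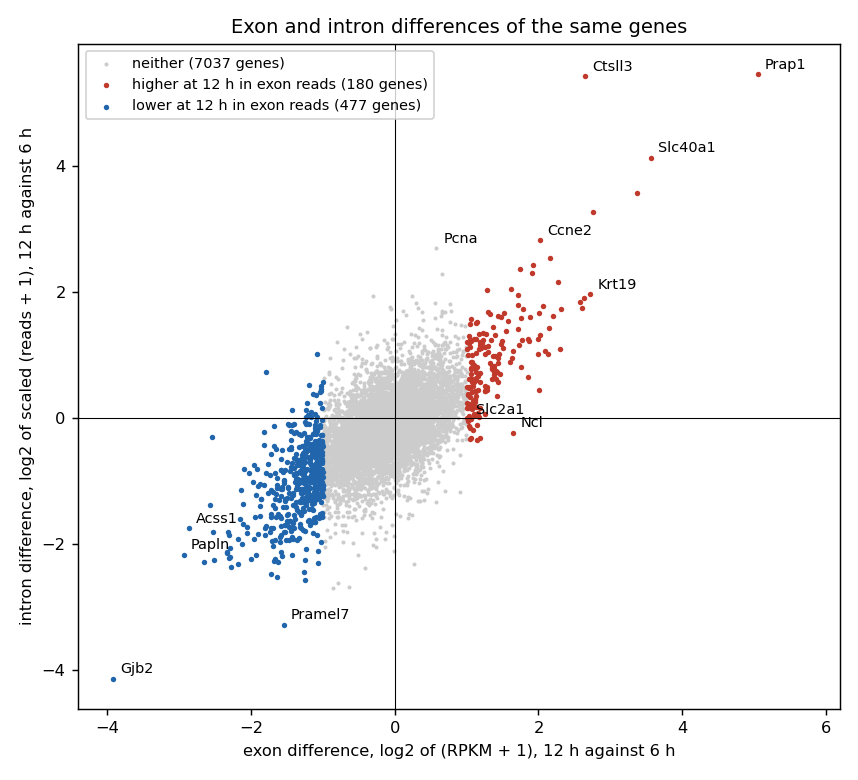
Difference in exon level (x axis, log2 of RPKM + 1) against difference in intron reads (y axis, log2 of scaled reads + 1) between 12 h and 6 h, 1 point per gene with at least 50 reads of both kinds. Red points (180 genes) rose in exons, blue points (477 genes) fell; most lie in the quadrant of matching sign, and Ncl and Slc2a1 lie near the horizontal line.

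Several genes of glycolysis and lactate export rose in the second window. Of 22 such genes with enough reads 7 rose, with none lower by the rule, and the list's median was 0.76 (0.88 at median-ratio scaling) against -0.11 for all genes. Slc16a3, the transporter that exports lactate, stood at 0.69, 1.14 and 13.4 RPKM. Ldha, the lactate dehydrogenase subunit that makes lactate from pyruvate, stood at 3.55, 3.20 and 24.6 RPKM. Both genes that lead to lactate export were thus low in the dormant and 6 h libraries and rose 11.8-fold and 7.68-fold. Pkm, pyruvate kinase, went from 17.2 to 72.4 RPKM, and Pgk1, phosphoglycerate kinase, from 0.56 to 4.72 RPKM. Pfkl, the liver-type phosphofructokinase, went from 33.4 to 80.0 RPKM. Pdk1, a kinase that keeps pyruvate out of the citric acid cycle, went from 2.52 to 6.42 RPKM. Ldha and Pgk1 have many processed copies in the genome, so their counts may be split. The hexokinase gene Hk2 stood at 111 and 115 RPKM and did not pass the rule. Of 17 genes of the citric acid cycle and pyruvate entry none rose or fell, with a median of 0.25.

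Promoters of 3 of these genes are shown because the genes rose together and carry the letters ACGTG, the core of the element bound by hypoxia-inducible factors. The capitals mark ACGTG on either strand, as CACGT for the other strand, and CACGTG reads as the motif on both strands. Each sequence is the 250 bases before a RefSeq start on GRCm38.p6, 5′ to 3′ on the gene's strand.
Slc16a3, chr11:120948817-120949066, plus strand: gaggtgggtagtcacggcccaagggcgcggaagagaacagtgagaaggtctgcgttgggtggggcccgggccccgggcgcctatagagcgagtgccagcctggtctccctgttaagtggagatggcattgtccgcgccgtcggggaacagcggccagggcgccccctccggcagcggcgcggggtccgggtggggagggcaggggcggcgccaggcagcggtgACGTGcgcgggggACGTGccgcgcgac
Pgk1, chrX:106186850-106187099, plus strand: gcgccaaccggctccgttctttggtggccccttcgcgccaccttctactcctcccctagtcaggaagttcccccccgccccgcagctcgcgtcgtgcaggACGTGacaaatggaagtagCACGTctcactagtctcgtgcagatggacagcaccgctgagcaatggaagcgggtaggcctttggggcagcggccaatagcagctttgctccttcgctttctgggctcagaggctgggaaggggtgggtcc
Ldha, chr7:46845554-46845803, plus strand, the first of 2 starts in the table: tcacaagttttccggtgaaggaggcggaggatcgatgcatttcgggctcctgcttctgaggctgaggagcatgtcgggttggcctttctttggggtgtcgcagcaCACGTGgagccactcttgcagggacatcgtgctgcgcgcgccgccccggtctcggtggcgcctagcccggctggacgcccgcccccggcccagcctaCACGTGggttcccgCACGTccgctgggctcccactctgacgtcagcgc
Slc16a3 and Pgk1 hold 2 matches each and Ldha 5. Of 32851 promoters of the same length 16.6% hold at least 1. The genes shown were picked for carrying the motif, so their matches cannot be weighed against that share. Promoters of Pkm, Pfkl, Pdk1 and Slc2a1, which also rose, are not shown. A match describes letters and is not evidence of binding, and the RefSeq start can differ from the start of the GENCODE gene.

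Several genes of sterol synthesis rose. Of 22 genes of cholesterol synthesis and uptake, 6 rose and none fell, with a median of 0.52. They were the synthesis enzymes Nsdhl (9.73 and 27.9 RPKM), Msmo1 (19.2 and 42.6 RPKM), Cyp51 (11.5 and 24.7 RPKM), Fdps, Hsd17b7 and Sc5d. None of the 17 genes of this list with enough intron reads passed the rule in introns, and their median there was 0.04. Of 19 genes of fatty acid oxidation 2 fell and none rose, a count near the 6.48% of all genes that fell, with a median of -0.47. Cpt1a, which admits fatty acids to mitochondria, stood at 10.8, 12.6 and 3.99 RPKM, and Acadm, a dehydrogenase of the pathway, at 37.9, 45.9 and 20.1 RPKM.

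Several genes that carry cells into S phase rose. The E cyclins, which drive entry into S phase, led the list of G1 cyclins and their kinases, where 3 of 14 genes rose and none fell (median 0.24). Ccne1 stood at 2.59, 3.02 and 17.5 RPKM and Ccne2 at 2.07, 2.15 and 11.8 RPKM. Both cyclins were flat before 6 h, and the transcription factor E2f3 went from 1.31 to 4.04 RPKM. Of 36 DNA replication genes 4 rose and none fell, 33 of the 36 had a positive difference and the median was 0.57. The origin loading factor Cdc6 stood at 1.40, 1.15 and 6.04 RPKM. The helicase partners Cdc45 and Mcm10 and the helicase subunit Mcm5 rose 3.05-fold, 2.72-fold and 2.04-fold. In introns 10 of the 33 replication genes with enough reads rose and none fell. Both large and small subunits of ribonucleotide reductase, which makes deoxynucleotides, rose, Rrm1 from 20.3 to 51.2 RPKM and Rrm2 from 5.58 to 16.1 RPKM. Among 35 genes of mitosis and the spindle 2 rose (Bub1 and Ccna2) and 1 fell (Cdc25b), beside 2.78% and 6.48% of all genes. Of these 35 genes 26 had a positive difference, and the median was 0.34.

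**Figure D3:**
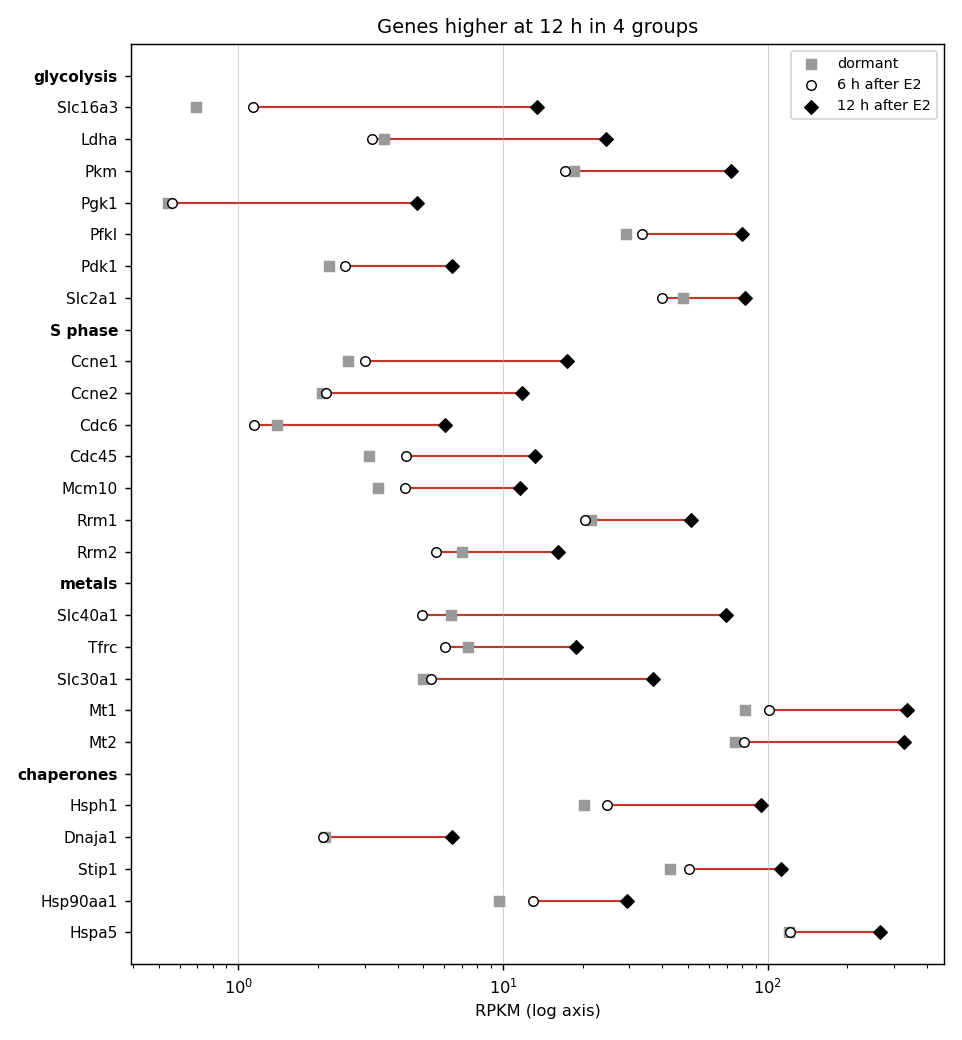
RPKM (log axis) in the dormant (squares), 6 h (open circles) and 12 h (diamonds) libraries for genes that rose in glycolysis, S phase, metal handling and chaperone groups, 1 library per state. In every row the diamond lies to the right of both other symbols, as for Slc16a3 at 13.4 RPKM.

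Several inhibitors of the cell cycle fell in the same window. Of 23 genes of a list of CDK inhibitors and quiescence genes 6 fell and 1 rose, with a median of -0.57. Cdkn1a, the CDK inhibitor p21, stood at 15.2, 20.3 and 3.27 RPKM. The antiproliferative genes Btg1 and Btg2 went from 33.7 to 9.94 RPKM and from 27.9 to 8.78 RPKM. Foxo3, a transcription factor of growth arrest, went from 16.1 to 4.73 RPKM and Mxd4, a repressor that competes with Myc for Max, from 6.43 to 1.95 RPKM. Foxo4 also fell, but not at median-ratio scaling (-0.89). The exception was Ccng2, an atypical cyclin of arrested cells, which rose from 2.52 to 13.2 RPKM.

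Immediate early genes, which cells switch on within minutes of a stimulus, had the lowest median of the 48 pathway lists. Of 20 such genes 9 fell and none rose, and the median was -0.98 (-0.85 at median-ratio scaling). Rhob, a small GTPase, stood at 97.9, 84.8 and 16.7 RPKM. The AP-1 subunits Fos (49.8, 51.1 and 17.6 RPKM), Junb (47.2, 42.4 and 12.5 RPKM) and Jund (74.0, 63.1 and 22.0 RPKM) followed the same course. Their levels at 6 h were close to those in dormancy, and the fall lay in the second window. Fosl2 differed, having risen from 5.65 to 9.66 RPKM before it fell to 3.58 RPKM. Sgk1, Klf2 and Btg2 also fell, and Fosb fell on the RPKM scale but not at median-ratio scaling (-0.90).

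LIF and STAT3 form a cytokine pathway that mouse implantation needs and that sustains the naive epiblast. Of 15 of its genes 6 fell, 1 rose and 8 did neither, with a median of -0.42. The ligand Lif stood at 35.8, 34.0 and 9.55 RPKM, and the transcription factor Stat3 at 35.8, 37.5 and 12.7 RPKM. The feedback inhibitors Socs3 and Cish, known targets of the pathway, went from 51.8 to 19.9 RPKM and from 7.49 to 1.05 RPKM. Transcripts of these 4 genes were lower at 12 h than in both other libraries, and intron reads of Stat3 fell with its exons, from 839 to 349. The kinase gene Pim1 fell from 14.1 to 4.62 RPKM, while Pim3 passed the rule on the RPKM scale and not at median-ratio scaling (-0.88). Il6ra, the interleukin 6 receptor, rose from 2.10 to 6.77 RPKM.

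Several receptors and ligands of other pathways fell as well, and the counts of each list are to be read beside the 6.48% of all genes that fell. The receptor tyrosine kinases Erbb2 (21.6 RPKM at 6 h, 6.56 RPKM at 12 h) and Erbb3 (38.4 and 7.86 RPKM), which pair with each other, were the 2 of 7 ErbB genes compared that fell. Of 19 genes of FGF signalling 4 fell, among them the receptor Fgfr4 (28.9 to 10.3 RPKM) and the ERK pathway inhibitors Dusp4 (24.7 to 10.4 RPKM) and Spry2 (32.2 to 13.8 RPKM). Wnt3a and Wnt6, secreted Wnt ligands, were the 2 of 23 Wnt genes that fell, a count near the 6.48% of all genes. Wnt3a stood at 15.2, 17.5 and 2.21 RPKM and Wnt6 at 26.1, 23.9 and 7.03 RPKM, and none of the 23 rose. Of 18 Hippo pathway genes 2 fell, a small count that does not set the list apart from the 6.48% of all genes. They were Tead2, a DNA-binding partner of YAP, and Amotl2, a junction protein that holds YAP back (2.85-fold and 2.87-fold). Nodal, a ligand of the TGF-beta family, went from 10.97 to 3.67 RPKM, and Id1, an inhibitor of helix-loop-helix factors, rose from 0.66 to 3.13 RPKM.

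**Figure D4:**
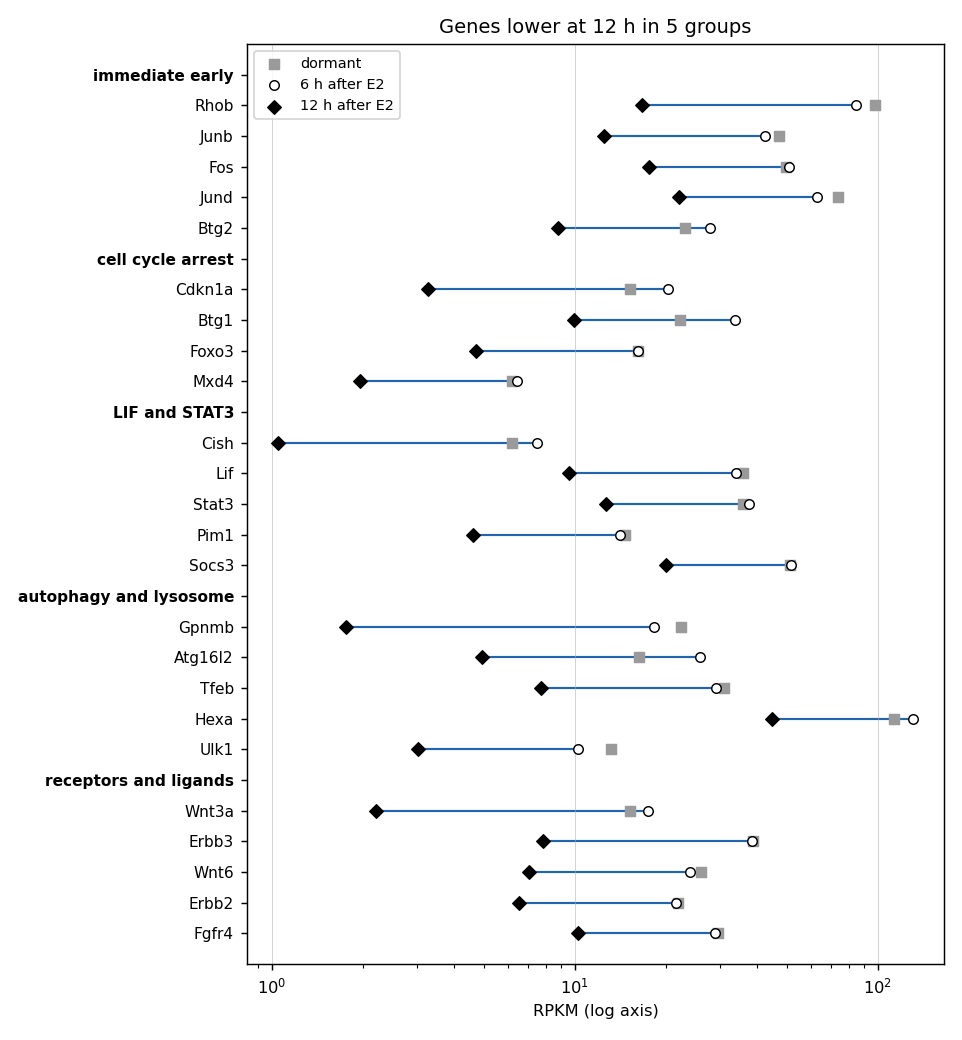
RPKM (log axis) in the dormant (squares), 6 h (open circles) and 12 h (diamonds) libraries for genes that fell in 5 groups, 1 library per state. In every row the diamond lies to the left of both other symbols, and the squares and circles lie close together for most genes, as for Stat3 at 35.8 and 37.5 RPKM.

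Several genes of autophagy and the lysosome, by which cells digest their own contents, fell. Of 35 autophagy genes 7 fell and none rose, with a median of -0.55. Atg16l2, a relative of the conjugation factor Atg16l1, stood at 16.3, 25.8 and 4.94 RPKM, and Ulk1, the kinase that starts autophagy, at 13.1, 10.2 and 3.03 RPKM. Map1lc3b, which coats autophagosomes, stood at 18.1, 12.0 and 4.70 RPKM and had fallen in the first step too. Wipi1, Atg13 and Gabarap fell as well, and Wipi2 fell on the RPKM scale alone (-0.99 at median-ratio scaling). Of 33 lysosome genes 9 fell and 1 rose, with a median of -0.46. Tfeb, the transcription factor that drives lysosome genes, stood at 31.0, 29.2 and 7.74 RPKM, and its intron reads went from 782 to 287. Gpnmb, a lysosome and melanosome glycoprotein, stood at 22.4, 18.2 and 1.76 RPKM. Hexa, a lysosomal hydrolase subunit, fell from 130 to 44.6 RPKM. The proteases Ctsd and Ctsa and the cholesterol carrier Npc2 fell on the RPKM scale but not at median-ratio scaling (-0.97, -0.93 and -0.88). Ctsc, a peptidase of the same compartment, rose from 16.1 to 47.9 RPKM.

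Genes of protein folding, the proteasome and ribosome biogenesis had positive medians, and few of them passed the rule. Of 31 chaperone genes 5 rose and none fell, with a median of 0.49. Hsph1, a large heat shock protein, stood at 20.2, 24.7 and 94.1 RPKM. The inducible Hsp90 gene Hsp90aa1 went from 13.02 to 29.5 RPKM and its cochaperone Stip1 from 50.4 to 113 RPKM. In the endoplasmic reticulum 3 of 24 genes rose, with a median of 0.60. The chaperone Hspa5 went from 122 to 266 RPKM, Manf from 44.0 to 90.9 RPKM and Dnajb11 from 16.4 to 34.9 RPKM. The 1 gene of that list that fell, Eif2ak3, encodes the stress kinase PERK and went from 19.95 to 4.15 RPKM. No proteasome gene of 36 passed the rule, though 33 had a positive difference and the median was 0.44. Of 41 nucleolar genes of ribosome biogenesis 37 had a positive difference, the median was 0.43, and Ncl was the 1 that rose. Cytosolic ribosomal protein genes lay on the other side of zero, with 39 of 47 negative, a median of -0.38 and none past the rule. Their median had been 0.20 in the first step, which shares the 6 h library.

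**Figure D5:**
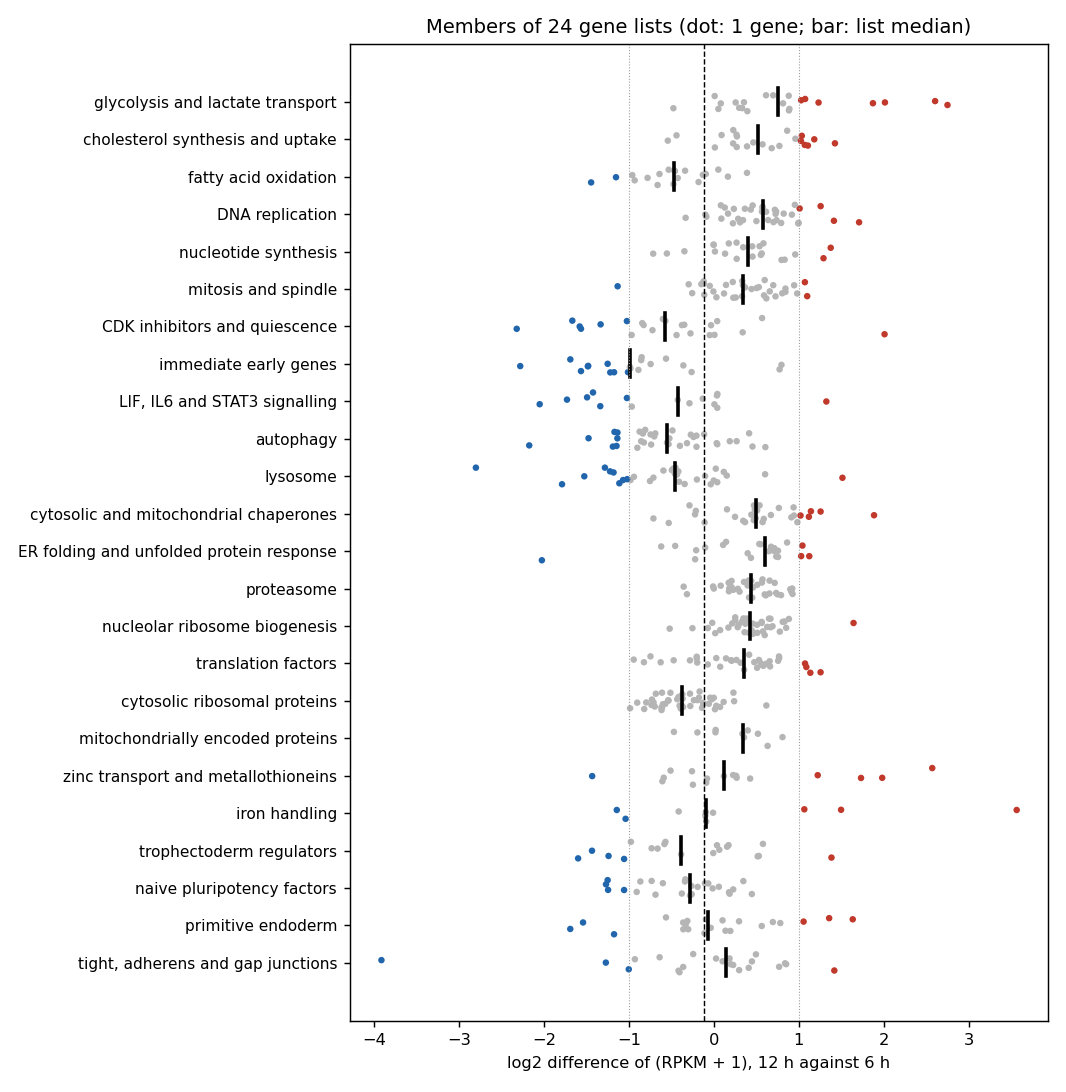
Difference in exon level (x axis, log2 of RPKM + 1, 12 h against 6 h) of the members of 24 gene lists, 1 dot per gene with at least 50 exon reads; red dots rose, blue dots fell and bars are list medians. The dashed line is the median of all genes compared (-0.11); glycolysis has the median farthest to the right (0.76) and immediate early genes the one farthest to the left (-0.98).

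Zinc and iron genes included several large rises. Metallothioneins are small proteins that bind zinc and other metals, and Slc30a1 exports zinc across the plasma membrane. Of 17 genes of zinc transport and metallothioneins 4 rose and 1 fell, with a median of 0.12. Slc30a1 stood at 4.97, 5.35 and 36.8 RPKM. Mt1 stood at 82.3, 101 and 337 RPKM and Mt2 at 75.2, 81.6 and 326 RPKM. The exporter and both metallothioneins were near their dormant level at 6 h and rose 6.87-fold, 3.35-fold and 3.99-fold. Mt1 and Mt2 are closely related neighbours, so their counts may be split between them. Slc30a2, another zinc transporter, rose from 2.51 to 7.20 RPKM, and Slc39a4, which imports zinc, fell from 13.8 to 4.50 RPKM. Among 10 iron genes Slc40a1, the transferrin receptor Tfrc (6.04 and 18.9 RPKM) and the heme-degrading enzyme Hmox1 (40.7 and 86.4 RPKM) rose. The iron reductase Steap3 fell from 6.35 to 2.33 RPKM, and the ferritin light chain Ftl1 fell on the RPKM scale alone (-0.90 at median-ratio scaling). Of 20 NRF2 and antioxidant genes 3 rose, Gclm and Gsr of glutathione synthesis and recycling besides Hmox1, and none fell.

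The promoters of the 3 zinc genes with the largest rises are shown because the transcription factor MTF1 is known to act on them through metal response elements. The capitals mark TGCACNC or TGCGCNC on either strand, in the 250 bases before the RefSeq start on GRCm38.p6.
Mt1, chr8:94178839-94179088, plus strand: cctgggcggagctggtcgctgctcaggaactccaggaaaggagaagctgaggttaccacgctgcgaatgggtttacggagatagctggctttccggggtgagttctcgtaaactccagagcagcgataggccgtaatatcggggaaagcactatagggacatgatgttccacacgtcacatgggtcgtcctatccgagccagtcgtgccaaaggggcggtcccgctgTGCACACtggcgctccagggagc
Mt2, chr8:94172368-94172617, plus strand: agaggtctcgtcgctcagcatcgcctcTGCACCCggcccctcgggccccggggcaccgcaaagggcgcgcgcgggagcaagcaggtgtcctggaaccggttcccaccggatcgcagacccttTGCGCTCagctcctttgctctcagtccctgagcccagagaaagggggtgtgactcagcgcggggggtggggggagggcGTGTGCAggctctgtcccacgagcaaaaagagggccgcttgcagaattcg
Slc30a1, chr1:191906531-191906780, plus strand: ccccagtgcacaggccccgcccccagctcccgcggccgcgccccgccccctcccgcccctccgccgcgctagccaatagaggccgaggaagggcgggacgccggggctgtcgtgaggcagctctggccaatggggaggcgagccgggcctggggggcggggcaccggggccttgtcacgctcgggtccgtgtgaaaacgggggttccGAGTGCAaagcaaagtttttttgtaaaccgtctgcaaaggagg
Mt1 and Slc30a1 hold 1 match each and Mt2 holds 3. Of 32851 promoters 10.4% hold TGCACNC, 12.5% hold TGCGCNC and 21.4% hold either. These genes were picked for known metal response elements, so their matches cannot be weighed against these shares.

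Lineage regulators showed a mixed picture. Cdx2, the factor that specifies trophectoderm, stood at 113, 95.8 and 34.8 RPKM, and Elf5, a factor of trophoblast stem cells, at 30.1, 30.5 and 81.3 RPKM. Both trophectoderm factors changed little before 6 h and moved in opposite directions within the same window. Grhl2 and Msx2 also fell, and of 19 trophectoderm regulators 4 fell and 1 rose. Of 25 naive pluripotency factors 4 fell and none rose, namely Nr5a2 (24.6 to 9.60 RPKM), Tet2 (19.9 to 7.82 RPKM), Klf2 (6.42 to 2.12 RPKM) and Esrrb, the last on the RPKM scale alone (-0.92 at median-ratio scaling). Pou5f1 and Nanog did not pass the rule (-0.01 and -0.28). In the primitive endoderm list Dab2, an endocytic adaptor, went from 157 to 53.2 RPKM and Apoe, a lipid carrier, from 252 to 77.4 RPKM. The same list held rises of Nid1, a basement membrane protein (35.7 to 93.2 RPKM), and of Apoa1. In bulk samples fewer cells of a type and less RNA per cell cannot be told apart.

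Surface and junction genes that passed the rule went in both directions. Of 22 junction genes Ocln, a tight junction protein, rose from 25.9 to 70.8 RPKM, while Gjb2 and Tjp3 fell. Of 23 integrin and matrix genes Itga7 and Itgb3 rose and Fn1 and Lama5 fell, beside 2.78% and 6.48% of all genes compared. Tinagl1, a secreted matrix protein related to cathepsins, stood at 76.7, 89.6 and 249 RPKM, and Serpine2, an inhibitor of serine proteases, at 43.4, 38.1 and 14.3 RPKM. Among 15 amino acid transporters Slc1a1 and Slc6a14 rose, the latter from 35.3 to 110 RPKM, and Slc6a6 fell on the RPKM scale (20.3 to 9.44 RPKM) but not at median-ratio scaling (-0.89). Psat1, of serine synthesis, went from 9.47 to 35.0 RPKM, and Ddit3, a transcription factor of the stress response, from 28.4 to 8.79 RPKM.

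Markers of cells outside the embryo were mostly under the read minimum. Of 19 immune markers 4 had enough reads. Csf3r, the receptor for a granulocyte growth factor, stood at 31.9, 34.1 and 6.18 RPKM, Laptm5 went from 11.5 to 4.11 RPKM and Cxcr2, a chemokine receptor, rose from 3.88 to 12.1 RPKM. The pan-leukocyte marker Ptprc stood at 0.27 and 0.20 RPKM, and Elane had no read in either library. The summed RPKM of the 19 was 56.1 in dormancy, 57.2 at 6 h and 25.1 at 12 h. S100a8 (2.47 to 16.6 RPKM) and S100a9 (3.91 to 20.4 RPKM), whose proteins are abundant in neutrophils, rose in the same window as Cxcr2, and the part of immune cells in these rises was not tested. Of 17 uterine epithelium markers 6 had enough reads and 1 of them, Wfdc2, fell (32.7 to 13.4 RPKM), with a summed RPKM of 75.9 at 6 h and 58.9 at 12 h. Of 11 stroma markers none of the 3 compared passed the rule. Of 7 endothelial markers Pecam1 fell (4.83 to 1.67 RPKM), and no red cell marker reached the read minimum.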

How the data were processed

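RNA of pooled blastocysts was sequenced after depletion of ribosomal RNA, with 50 bp single-end SOLiD reads, per the labels' protocols. The authors deposited 1 table per library with read counts per gene, which the file headers split into exon, intron, junction and opposite-strand reads, and the authors' own RPKM, per the file headers. The submitters' processing notes name GRCm38. Aligner, counter and annotation release: not given in the sources used here.

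Tables of the 6 h and 12 h libraries were joined on the gene identifier. Genes with at least 50 exon reads in the higher library entered, and the difference was log2((RPKM + 1)/(RPKM + 1)) with a size rule of 1. Median-ratio scaling checked the direction. Intron differences used reads + 1 over the library total implied by the RPKM. Poisson intervals (RPKM) and exact binomial intervals (read ratios) are at 95% and cover counting error only, since the reads carry no molecular identifiers and so are not independent molecules. No test across replicates exists for single libraries. Scripts used Python 3.11.15, pandas 2.3.3 and SciPy 1.17.1 and were tested on simulated counts. Symbols, coordinates and biotypes came from GENCODE M21 (84.7% of identifiers matched), promoter sequences from RefSeq on GRCm38.p6.

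The genes compared, the 48 pathway lists and 8 marker lists were chosen with earlier results of these data known. Named genes are the 15 largest rises and falls, the 10 largest of each with a flat first step, up to 15 genes each turned on or off, list members past the rule or among the 3 largest of a list, and the 8 largest intron differences of each direction. Hk2, Pcna's exon level, Pou5f1, Nanog, Krt18, Gata4, Ptprc, Elane and all genes in the last section outside that rule were named after their values were seen. Alternatives were other scalings, pseudocounts, read minimums, gene classes and limits on the first step. Most genes that passed the size rule are counted but not named, and some are not reported here.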

Additional observations from a re-analysis of the deposited data

Results flagged for a closer look

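Reads on the strand opposite a gene enter no comparison above. Among the 3963 genes with enough of them, 187 were higher and 209 lower at 12 h by the same size, with a median difference of 0.16. Of the genes with the largest rises 5 are listed for reads well above their dormant and 6 h levels, and each lies across from another gene on the other strand. Opposite-strand reads of Fuom, which overlaps Prap1, numbered 5 in dormancy, 0 at 6 h and 190 at 12 h, while its own exon reads were 37, 18 and 12. Those of Ints8, which overlaps the cyclin gene Ccne2, numbered 55, 58 and 369. Those of Hif1a, the oxygen-regulated transcription factor, numbered 12, 7 and 117 and lie where Gm15283 is annotated, and Hif1a itself had 2075, 2624 and 2669 exon reads. Those of Mybph, across from Adora1, numbered 29, 8 and 69, and those of Ikbkg, across from G6pdx, numbered 21, 9 and 54. Which gene these reads come from was not tested.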

How the results depend on the processing

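A pseudocount cannot turn a sign, and the scalings move genes by nearly equal amounts, so the direction of large differences is fixed by construction. Of 248 genes named by the rule, 223 kept their side of the size rule at median-ratio scaling, 9 newly passed it and 16 no longer did. At median-ratio scaling 352 genes rose with a flat first step and 46 were turned on. With CPM per kb without mitochondrial and small RNA genes 525 rose, 383 of them with a flat first step. That scale has a smaller total, so that the pseudocount weighs less. With a pseudocount of 0.1, 490 rose, 1197 fell, 942 fell with a flat first step, 126 were turned on and 299 turned off. A minimum of 20 exon reads gave 48 turned on, a minimum of 200 gave 8 turned on and 22 turned off, and a minimum of 1 gave 461 that rose, 157 turned on and 275 turned off. A minimum of 200 intron reads left 61 genes higher and 243 lower in introns, and a pseudocount of 10 intron reads left 152 higher. All other counts stayed within 1.5 times of those reported. Of 55 lists with a median, 9 changed the sign of their median at median-ratio scaling and 6 with CPM. The precision of weakly expressed genes is limited by depth: 32 genes sat at exactly 50 exon reads in the higher library (differences of -1.54 to 0.80) and 39 genes at 49 (-1.59 to 1.85). Leaving out a replicate was not possible with 1 library per state. No paired analysis was possible because each state is 1 library.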

Other observations

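A list of known targets of hypoxia-inducible factors was written after the values were seen, and it shares 14 genes with the glycolysis list, so its counts describe these libraries and support nothing. Of 34 members with enough reads 12 rose and none fell, with a median of 0.50. Besides the glycolysis genes they included Plod2 and P4ha1, enzymes that hydroxylate collagen, at 8.11 and 29.9 RPKM and at 6.78 and 23.0 RPKM, and Ankrd37, at 0.64 and 5.47 RPKM. Of all 34 members 25 had a positive and 9 a negative difference. Of those that did not pass the rule, Vegfa stood at 12.0 and 10.2 RPKM, Egln3 at 5.54 and 3.17 RPKM, Ndrg1 at 483 and 313 RPKM and Bnip3 at 8.60 and 8.88 RPKM.

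A second list written after the values were seen, of genes known to be driven by TFEB and TFE3, held 21 members with enough reads, of which 11 fell and none rose, with a median of -1.07. Several members were picked because they had fallen, so the counts and median describe these libraries and support nothing. Among the 11, Ctsa, Ctsd and Fnip1 fell on the RPKM scale but not at median-ratio scaling (-0.93, -0.97 and -0.94). Rragd, a GTPase that signals nutrient supply to mTOR, stood at 39.6, 44.8 and 10.4 RPKM and Flcn, which acts on it, at 14.7, 17.1 and 6.63 RPKM.

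Some genes were higher at 6 h than in the dormant and 12 h libraries. The calcium-binding protein S100a1 stood at 159, 389 and 158 RPKM and Sec31b, of secretory vesicle coats, at 2.35, 20.5 and 6.47 RPKM. Others fell at each step, such as the stress-induced Nupr1 at 104, 64.3 and 14.0 RPKM and Grina at 223, 137 and 37.2 RPKM. In the other direction Tipin, a protein of the replication fork, rose at each step, with 14.3, 21.8 and 47.6 RPKM. Among transporters and placental genes with a flat first step, Slc28a3, a nucleoside carrier, stood at 24.9, 27.98 and 120 RPKM and Plac1 at 3.02, 4.61 and 24.2 RPKM. Alpl, alkaline phosphatase, stood at 368, 404 and 96.4 RPKM.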
